A study of Mus musculus with 2 samples.

Results

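The genes described here are the EGF receptor gene Egfr, its partner receptors Erbb2 and Erbb3, and 5 ligand genes (Areg, Ereg, Hbegf, Tgfa and Btc). They were taken by gene symbol from a written list and make up 8 of the 44291 genes in the expression tables. The rule used no measured values, but the choice was made with earlier results of these data known. The receptors are tyrosine kinases of the ErbB family, which pair at the cell surface when a ligand binds. The ligands are made as membrane precursors and are released by ADAM proteases, so that a cell can signal to itself or to its neighbours. In mesenchymal cells the receptor is known to drive proliferation through the RAS-ERK cascade and to oppose adipocyte differentiation.

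Transcripts were sequenced from primary fibro-adipogenic progenitors (FAPs) of mice, which are mesenchymal cells resident in skeletal muscle and able to become adipocytes. The cells were wild type (WT) and came from digested hind limb muscle by flow cytometry sorting. By the labels, cells of one library were treated with platelet-rich plasma (PRP), which contains platelet growth factors and vesicles. Those of the other library were the control, for which the study's text gives vehicle. Both were then induced toward adipocytes in DMEM with insulin at 10 μg/ml, dexamethasone at 0.25 μM, IBMX at 0.5 mM and FBS at 20%, so these agents were shared by both groups. PRP is the treatment the labels give, but the study's own text describes FAPs treated with exosomes isolated from PRP of young human donors. Those exosomes were separated from the soluble factors of PRP, so whether soluble growth factors were added is not settled here. There was 1 library per group, so each difference below is between 2 libraries, has no replicate check and no p-value.

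Expression is given as FPKM, the reads of a gene scaled by its exon length and by the reads assigned to all genes, so levels of different genes can be set side by side. The PRP library held 40120843 assigned reads and the control library 34139741. Read numbers were recovered from the FPKM values, and each 95% interval is an exact Clopper-Pearson binomial interval on fragments, which are read pairs. Such an interval covers counting error alone, compares the libraries rather than the treatments, and takes no account of PCR duplicates. Differences are log2(PRP FPKM + 1) minus log2(control FPKM + 1), so that the change of a gene with low values is understated. A gene was called when its mean FPKM was at least 1 and this difference reached 2-fold, which 2.00% of 13401 genes did in the direction higher with PRP and 0.828% in the direction lower with PRP.

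The study names the microRNAs let-7f-5p and miR-16-5p as cargo of the PRP exosomes, so their mouse sequences from RefSeq are shown with the seed (bases 2 to 8) in capitals.
mmu-let-7f-5p: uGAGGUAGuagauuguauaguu
mmu-miR-16-5p: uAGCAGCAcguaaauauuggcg

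Matches to these seeds in the stretch after the stop codon were looked for in all 8 genes on the transcribed strand, as CTACCTC for let-7f-5p and TGCTGCT for miR-16-5p. Of 10292 tested genes with such a stretch, 9.86% held CTACCTC and 24.6% held TGCTGCT. Ereg had 1 let-7f-5p match (chr5:91092753-91092775, plus strand), and Egfr (chr11:16917083-16917105, plus strand) and Tgfa (chr6:86273672-86273694, plus strand) had 1 miR-16-5p match each. The matches are shown with the seed match in capitals, because they are the letters by which these genes could pair with the named microRNAs.
Ereg, let-7f-5p: catcaagaCTACCTCatagtcca
Egfr, miR-16-5p: cgttttttTGCTGCTtacacatc
Tgfa, miR-16-5p: gtgtcaccTGCTGCTcagacacc

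The other 5 genes held neither 7-base match. Their stretches after the stop codon were shorter, at 253 to 2069 bases. Those of Egfr, Tgfa and Ereg had 6303, 3764 and 3501 bases. Ereg and Tgfa were under the filter, so they are not among the tested genes behind the shares. A match is a description of the sequence and not a measured site, and the values of Ereg, Egfr and Tgfa are given with their roles.

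Egfr was by far the most abundant of the receptor and ligand mRNAs and stood at the same level in both libraries within counting error. Egfr (ENSMUSG00000020122, chr11:16752203-16918158, plus strand, GRCm38) had 10.8 FPKM with PRP and 10.65 FPKM in the control, from 4910 and 4118 reads. The ratio of PRP to control was 1.01 (95% interval 0.956 to 1.08) and the difference 0.02 on the log2 scale. Its level lay above that of 68.2% of tested genes with PRP and 68.4% in the control. Among 10843 tested genes, the nearest to Egfr in level in both libraries were Mtif2 (10.8 FPKM with PRP, 10.5 FPKM in the control), Tmem126a (10.6 and 10.7 FPKM) and Wwc2 (10.9 and 10.5 FPKM). Likeness was the Euclidean distance on the log2(FPKM + 1) scale over the 2 libraries, which was 0.0132, 0.0219 and 0.0235 for these genes.

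Erbb2 encodes the receptor that has no ligand of its own and acts as the preferred partner of the others. It had 2.10 FPKM with PRP and 2.27 FPKM in the control (ENSMUSG00000062312, chr11:98412470-98437716, plus strand), from 440 and 403 reads. The ratio was 0.929 (95% interval 0.764 to 1.13), which includes no change. Measured per length, Erbb2 mRNA amounted to 19.5% of Egfr mRNA with PRP and 21.3% in the control.

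Erbb3, whose product binds neuregulins and has a kinase domain of little activity, was close to the limit of detection. It had 0.0663 FPKM with PRP and 0.00974 FPKM in the control (ENSMUSG00000018166, chr10:128567523-128589652, minus strand), which stand for 16 and 2 reads. The ratio of 6.81 had a 95% interval of 0.913 to 302, so no difference was detectable at this depth, although an interval on reads in place of fragments excluded no change. The FPKM of the 3 receptor genes summed to 12.98 with PRP and 12.93 in the control, and Egfr made up 83.3% and 82.4% of these sums. A bulk library cannot tell fewer cells of a type from less RNA per cell, which holds for each level given here.

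**Figure D1:**
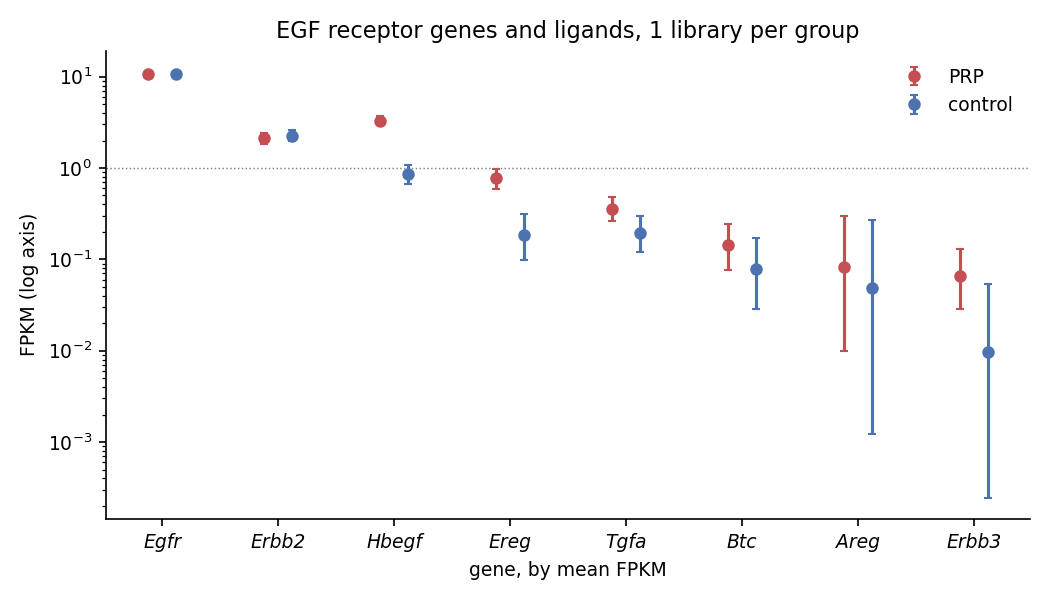
FPKM (log axis) of the 3 receptor genes and 5 ligand genes in the PRP library (red) and the control library (blue), ordered by mean FPKM, with 95% counting intervals as bars and 1 FPKM as the dotted line. Egfr sits near 10.8 FPKM in both libraries, and the 2 libraries are clearly apart for Hbegf and Ereg.

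The ligand mRNAs were below Egfr mRNA in both libraries, and 2 of them, Hbegf and Ereg, stood several-fold higher in the PRP library. Hbegf encodes heparin-binding EGF-like growth factor, which binds EGFR and ErbB4. It had 3.31 FPKM with PRP and 0.854 FPKM in the control (ENSMUSG00000024486, chr18:36504927-36515805, minus strand), from 642 and 141 reads. The PRP level was higher by a ratio of 3.87 (95% interval 2.99 to 5.09), a difference of 1.22 on the log2 scale. The interval of its level ran from 2.96 to 3.69 FPKM with PRP and from 0.667 to 1.08 FPKM in the control, so the counting intervals did not overlap.

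Hbegf changed its place in the order of the genes. With PRP it lay above Erbb2, whose interval was 1.84 to 2.40 FPKM, and in the control it lay below Erbb2, whose interval was 1.96 to 2.60 FPKM. Set against Egfr, Hbegf mRNA was 30.6% of the receptor mRNA with PRP and 8.02% in the control. Hbegf passed the filter on mean FPKM through its PRP level, since its control level was under 1 FPKM.

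Ereg encodes epiregulin, a low-affinity ligand of EGFR and ErbB4. It had 0.773 FPKM with PRP and 0.184 FPKM in the control (ENSMUSG00000029377, chr5:91074622-91093646, plus strand), from 128 and 26 reads. The ratio of 4.19 (95% interval 2.28 to 8.29) was of the size seen for Hbegf, whereas its difference was 0.58 on the log2 scale because both levels were under 1 FPKM. Its mean FPKM fell under the filter of 1, so it was not among the tested genes. Ereg shares 3.42% of its exon length with an antisense gene that is described with the chromosome 5 cluster.

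Tgfa encodes transforming growth factor alpha, a high-affinity EGFR ligand. It had 0.357 FPKM with PRP and 0.194 FPKM in the control (ENSMUSG00000029999, chr6:86195223-86275719, plus strand), from 93 and 43 reads. The ratio was 1.84, and the lower bound of its 95% interval (1.08 to 3.23) lay just above no change. Its exons share 1.82% of their length with the antisense gene Gm43917.

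Btc (betacellulin) and Areg (amphiregulin) were measured by few reads. Btc had 0.143 FPKM with PRP and 0.0778 FPKM in the control (ENSMUSG00000082361, chr5:91357261-91402994, minus strand), from 26 and 12 reads, with a ratio of 1.84 and a 95% interval of 0.654 to 5.92. Areg had 0.0821 FPKM with PRP and 0.0482 FPKM in the control (ENSMUSG00000029378, chr5:91139599-91148432, plus strand), from 4 and 2 reads, with a ratio of 1.70 and a 95% interval of 0.0886 to 100.4. Neither gene showed a difference that could be detected at this depth.

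The 5 ligand genes summed to 4.67 FPKM with PRP and 1.36 FPKM in the control, a ratio of 3.43, of which Hbegf made up 70.9% and 62.9%. Summed ligand mRNA was thus 43.2% of Egfr mRNA with PRP and 12.8% in the control. In the PRP library the order from high to low was Egfr, Hbegf, Erbb2, Ereg, Tgfa, Btc, Areg and Erbb3. The control library had Erbb2 before Hbegf and Tgfa before Ereg, and was otherwise in the same order. In the control the counting intervals of Tgfa, Ereg and Btc overlapped, which they did not between neighbours in the PRP library. Those of Btc and Areg and of Areg and Erbb3 overlapped in both libraries.

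Of the receptor and ligand genes, Egfr, Erbb2 and Hbegf reached a mean FPKM of 1. Of these 3, 1 (Hbegf) was at least 2-fold higher with PRP, as were 2.00% of 13401 tested genes. At least 2-fold lower were 0 of the 3, against 0.828% of the tested genes. Hbegf reached the mean of 1 through its PRP level, as its control level was 0.854 FPKM. At any level, 7 of the 8 genes had a higher FPKM with PRP, as had 53.0% of 29785 genes above 0, and Erbb2 was the one that was lower. The counting interval lay above no change for 3 of the 8 (Hbegf, Ereg and Tgfa), as for 14.6% of 26398 genes with whole reads, and below it for 0 of the 8, against 13.9% of those genes. Interval width follows depth, and among genes under a mean of 1 FPKM the interval lay above no change for 4.47%, where 2 of the 5 genes at that level (Ereg and Tgfa) did so. The 4.47% covers all such genes above 0 FPKM, down to the fewest reads. It is thus not matched to the depth of Ereg (128 and 26 reads) and Tgfa (93 and 43 reads). The 8 genes were chosen with earlier results of these data known, so these counts are not independent evidence.

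**Figure D2:**
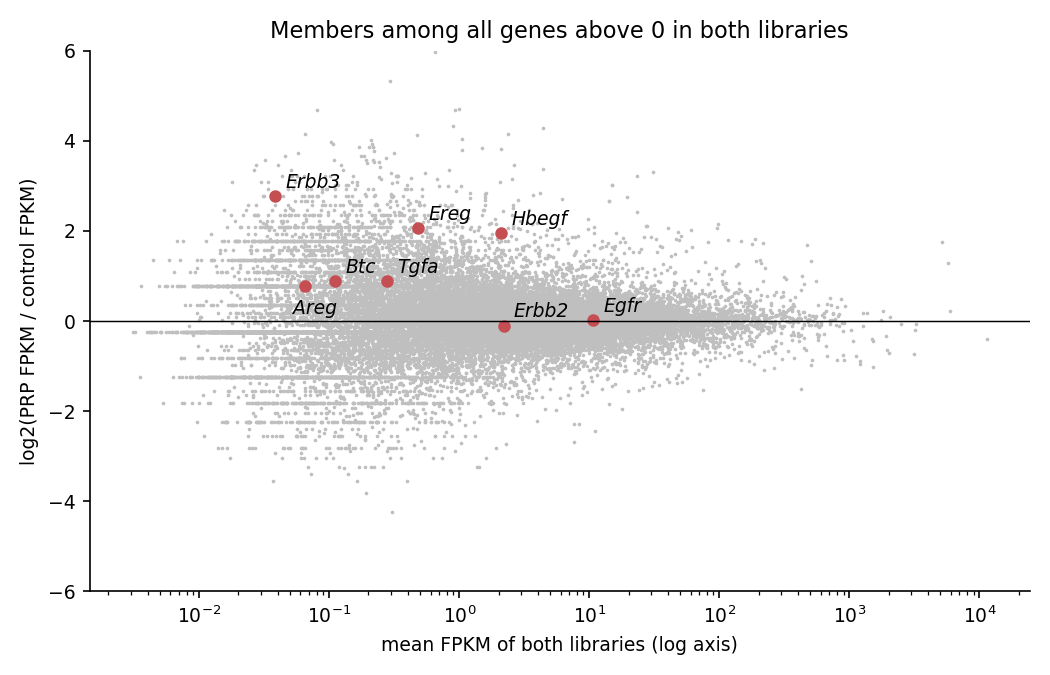
Log2 ratio of PRP FPKM to control FPKM against mean FPKM (log axis) for 23815 genes above 0 in both libraries (grey), with the 3 receptor genes and 5 ligand genes in red. Egfr and Erbb2 lie on the line of no change, Hbegf and Ereg lie about 2 log2 units above it, and Erbb3, Areg and Btc lie at the low levels where few reads were counted.

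The remaining receptors and ligands of the family were low in both libraries, and the neuregulin gene Nrg1 was the one whose interval excluded no change. Erbb4, the fourth receptor, had 0.0121 FPKM with PRP and 0.0142 FPKM in the control, from 6 reads each. Egf, the ligand that gave the receptor its name, had 0.219 and 0.208 FPKM, with a ratio of 1.05 (95% interval 0.680 to 1.64). Epgn (epigen) was listed at 0 with PRP and had 1 read in the control.

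Nrg1, a ligand of ErbB3 and ErbB4, had 1.22 FPKM with PRP and 0.664 FPKM in the control, with a ratio of 1.84 (95% interval 1.42 to 2.40, from the smallest read numbers its ratio allows, 379 and 175). Nrg4 had a ratio of 0.972 (95% interval 0.545 to 1.75), with 0.236 FPKM in the control. Nrg2 had 0.0451 and 0.133 FPKM, and Nrg3 had 0.00731 and 0.00859 FPKM from 2 reads each. The receptors that bind Nrg1, Erbb3 and Erbb4, were thus both under 0.1 FPKM.

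**Figure D3:**
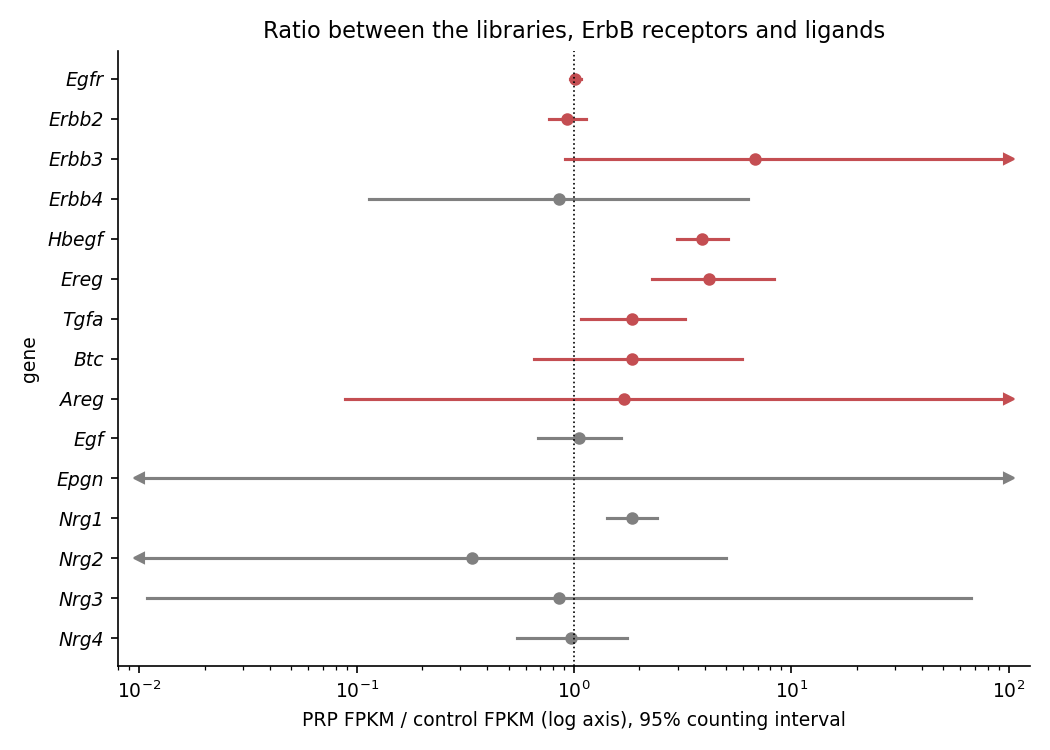
Ratio of PRP FPKM to control FPKM (log axis) with its 95% counting interval for the receptor and ligand genes described here (red) and the 7 other ErbB receptor and ligand genes (grey). Arrows mark intervals that run past the axis, and Epgn has no point because it is listed at 0 in the PRP library. Intervals that exclude no change are those of Hbegf, Ereg, Tgfa and Nrg1, each on the side higher with PRP.

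Ereg, Areg and Btc form a cluster with Epgn on chromosome 5, where an antisense gene at the start of Ereg had reads in the PRP library and none in the control. Epgn, Ereg, Areg and Btc lie within 375.5 kb (chr5:91027464-91402994), with gaps of 39.4 kb from Epgn to Ereg, 45.95 kb from Ereg to Areg and 208.8 kb from Areg to Btc. Gm19610 (ENSMUSG00000107350, chr5:91051871-91074773, minus strand) had 3.48 FPKM with PRP, from 57 reads, and was at 0 in the control. Set against a floor of 3 fragments in the control library its PRP level was 8.08-fold higher, and the lower end of its 95% counting interval was 6.16-fold.

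Gm19610 shares 141 of its 408 exon bases (34.6%) with the first exon of Ereg on the other strand. The kit keeps strand, but whether strand was used in counting is not given in the sources used here, so reads of Gm19610 and Ereg in the shared stretch cannot be told apart. Gm19619, the other gene of the cluster, had 0.0375 FPKM with PRP and 0.0147 FPKM in the control.

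Promoter windows from RefSeq (GRCm38.p6, mostly the bases just before each start) were at hand for Egfr, Erbb2, Areg, Tgfa and Btc. They were searched on both strands for the AP-1 motif TGANTCA, the cAMP response element TGACGTCA and its core TGACG, which the full element contains. The cAMP element was looked for because IBMX, which blocks the breakdown of cAMP, was present in both groups. TGACGTCA occurred in the window of Areg at position -61 from the start, as in 1.79% of 32851 promoters, and in no other window of these genes. The stretch around it (chr5:91139498-91139585, plus strand) is shown with the element in capitals.
Areg promoter: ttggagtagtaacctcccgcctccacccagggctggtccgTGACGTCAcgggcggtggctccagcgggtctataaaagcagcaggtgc

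TGACG was present in the windows of Areg, Btc and Erbb2 and in 20.8% of all promoters, and TGANTCA was in none of these 5 windows and in 7.81% of all promoters. Areg, the gene with the full element, was the one with 4 and 2 reads.

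Genes of the proteases that release the ligands from the membrane, and of their regulators, were expressed in both libraries, and 0 of them reached 2-fold. Over all 13401 tested genes, 2.00% were at least 2-fold higher and 0.828% at least 2-fold lower with PRP. A count of 0 in so short a list is near those shares. The list held 12 genes, all tested, of which 6 were higher and 6 lower with PRP, with a median difference of -0.04 beside a median of 0.01 over all tested genes. Adam17, the main sheddase of Hbegf, Tgfa, Areg and Ereg, had 16.4 FPKM with PRP and 19.4 FPKM in the control, a ratio of 0.844 (95% interval 0.797 to 0.894). The highest differences were those of the metalloprotease gene Adam19 (35.2 and 25.8 FPKM, ratio 1.37) and the rhomboid protease gene Rhbdl2 (1.48 and 0.954 FPKM, ratio 1.55). The lowest were those of Adam15 (12.4 and 19.2 FPKM, ratio 0.648) and Bace1 (5.30 and 7.57 FPKM, 95% interval of the ratio 0.632 to 0.777), which share 20.6% and 32.5% of their exon length with other genes.

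Genes that restrain the receptors or act on their degradation also stayed within 2-fold, as did most tested genes. The list held 17 genes, of which 15 were tested, 8 higher and 7 lower with PRP, with a median difference of 0.00. Errfi1, which encodes a direct inhibitor of the receptor kinase that is itself induced by the receptor, had 25.4 FPKM with PRP and 17.9 FPKM in the control, a ratio of 1.42 (95% interval 1.32 to 1.53). Rnf41, a ubiquitin ligase for ErbB3, had 12.7 and 10.6 FPKM, a ratio of 1.19. The lowest differences were those of the ubiquitin ligase gene Stub1 (42.0 and 62.1 FPKM, ratio 0.675, 42.3% of its exon length shared with other genes) and the deubiquitinase gene Usp8 (72.4 and 88.0 FPKM, ratio 0.822).

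Adaptors and kinases between the receptor and ERK were likewise within 2-fold, as were most tested genes. Of 21 genes, 20 were tested, 8 higher and 12 lower with PRP, with a median difference of -0.10. Among all genes above 0 FPKM, tested or not, 53.0% were higher with PRP. The exchange factor genes Sos2 (2.68 and 2.04 FPKM, ratio 1.32) and Sos1 (4.23 and 3.54 FPKM, ratio 1.19) were the highest. Mapk3, which encodes the kinase ERK1, had 13.7 FPKM with PRP and 24.0 FPKM in the control, a ratio of 0.572 (95% interval 0.516 to 0.634). Pik3r1, the regulatory subunit gene of PI3 kinase, had 11.5 and 16.3 FPKM, a ratio of 0.705.

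Transcripts that are known to be induced after the EGF receptor is activated were mostly higher with PRP. Of 26 genes, 21 were tested, and 17 of these were higher and 4 lower with PRP. Their median difference was 0.44, beside 0.01 over all tested genes. Among all genes above 0 FPKM, tested or not, 53.0% were higher with PRP. At least 2-fold higher were 5 genes (23.8% of those tested, beside 2.00% of all tested genes) and 0 were at least 2-fold lower. The same transcripts also follow other growth factors, serum and stress, and which signal they followed here was not tested. A list of ERK targets with several of these genes had been seen to be higher in these libraries before this list was written, so its direction is not independent evidence.

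The largest differences were those of Phlda1 (21.5 and 7.68 FPKM, ratio 2.80) and the AP-1 gene Fosl1 (61.6 and 22.6 FPKM, ratio 2.72), which share 33.0% and 57.2% of their exon length with other genes, so their values are uncertain. The other 3, named after their values were seen, were Klf10 (6.79 and 2.59 FPKM, ratio 2.62), the ERK phosphatase gene Dusp4 (15.1 and 6.32 FPKM, ratio 2.39) and Ier3 (12.3 and 5.31 FPKM, ratio 2.32). Lowest were the RAS-ERK inhibitor gene Spred1 (6.34 and 8.21 FPKM, ratio 0.772) and Fosl2 (10.8 and 13.2 FPKM, ratio 0.823). When genes sharing 20% or more of their exon length were left out, 19 genes were tested, of which 15 were higher and 3 at least 2-fold higher.

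**Figure D4:**
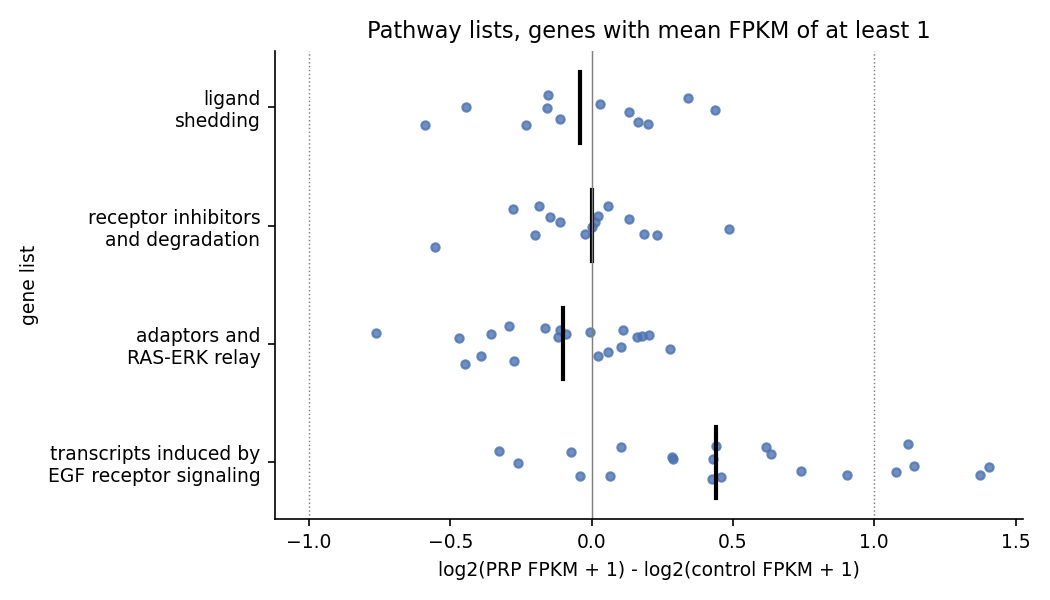
Difference between the libraries on the log2(FPKM + 1) scale for the tested genes (points) of 4 lists of the pathway, with the median of each list as a black bar and 2-fold in either direction as dotted lines. The medians of the first 3 lists lie between -0.10 and 0.00, and that of the induced transcripts at 0.44, with 5 points past 2-fold higher.

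By the counting interval, more genes of these lists differed in level. Tested genes numbered 12, 15, 20 and 21 in the shedding, inhibitor, relay and induced lists. The interval lay above no change for 4, 3, 4 and 16 of them, and below it for 6, 6, 9 and 2. Over the 12367 genes past the filter on mean FPKM that had whole reads, these shares were 26.2% above and 26.1% below.

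The levels of cell type markers moved between the libraries as well. The 10 FAP markers summed to 327.2 FPKM with PRP and 523.6 FPKM in the control, and 9 of them were lower with PRP, from Ly6a (59.9 and 66.4 FPKM) and Pdgfra (19.8 and 28.0 FPKM) to Col1a1 (118.6 and 218.7 FPKM), Col3a1 (26.9 and 53.7 FPKM) and Dpt (18.8 and 50.2 FPKM), which was at least 2-fold lower. Lum, often used as a fibroblast marker, was under 0.1 FPKM in both. Summed epithelial markers were 23.4 and 16.0 FPKM, mainly from Krt19 (19.7 and 11.3 FPKM), while Krt8 was lower with PRP (0.229 and 0.598 FPKM), Krt14 stood at 1.93 and 2.52 FPKM, and Epcam and Cdh1 were under 0.2 FPKM. Endothelial markers summed to 9.59 and 5.49 FPKM, mainly from Kdr (4.23 and 1.499 FPKM), which was at least 2-fold higher, and Tek (4.73 and 3.56 FPKM). Of the 8 endothelial markers, 5 were higher and 2 lower with PRP. Pecam1 stood at 0.188 and 0.0470 FPKM, Emcn at 0.203 and 0.173 FPKM and Cdh5 at 0.0949 and 0.0976 FPKM. Tie1 was at 0 and 0.0238 FPKM, and Cldn5 at 0 in both.

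Macrophage markers summed to 11.2 and 11.1 FPKM, of which Cd68 was higher with PRP (4.56 and 2.31 FPKM) and Lyz2 lower (4.91 and 7.57 FPKM), with the leukocyte gene Ptprc at 0.0109 and 0.0192 FPKM. Schwann cell markers summed to 1.57 and 3.26 FPKM, T cell and mast cell markers to 2.26 and 2.55 FPKM, myogenic markers to 3.18 and 3.56 FPKM and platelet markers to 2.91 and 2.58 FPKM. The highest gene of each list was, in this order, S100b (0.739 and 2.29 FPKM), Foxp3 (2.12 and 2.38 FPKM), Des (2.91 and 3.39 FPKM) and Itgb3 (1.35 and 1.14 FPKM). Foxp3 and Des made up most of the sums of their lists. In these last 3 lists, Cd3d, Mcpt4, Pax7, Myog, Ppbp and Gp9 were listed at 0 in both libraries. Others were not, such as Cd4 (0.0371 and 0.0218 FPKM), Chrna1 (0.0852 and 0.00668 FPKM), Itga2b (0.567 and 0.365 FPKM) and Gp1ba (0.917 and 1.03 FPKM). Higher with PRP were 2, 3 and 4 genes of the T cell and mast cell, myogenic and platelet lists, and 4, 2 and 2 were lower. Mitochondrial genes held 2.06% of the summed FPKM with PRP and 3.70% in the control. The part of these differences in the levels of Hbegf, Ereg and the induced transcripts was not tested.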

How the data were processed

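Per the labels, TRIzol extraction was followed by a stranded mRNA library kit. The submitters' processing notes name fastp 0.23.4, STAR 2.5.3a, featureCounts and mm10. The authors deposited FPKM values, 1 table of 44291 genes per library. How reads became FPKM, the annotation release and the use of strand in counting are not given in the sources used here. GENCODE M21 (GRCm38) gave coordinates and exon lengths for 41464 genes (93.6%). Nrg1 has a pair of identifiers, and the one in M21 was used.

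With M21 exon lengths, 26398 of 28152 genes above 0 (93.8%) gave whole read numbers (tolerance 0.001) in each library. Even read numbers made up 79.3% (PRP) and 80.3% (control) of those up to 8, so reads were divided by 2 to give fragments. For Nrg1, Nrg2, Ptprj and Ier2 the smallest read numbers that the ratio allows were used. No test made for counts was run, since there was 1 library per group.

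The pseudocount was 1, genes were filtered at a mean of 1 FPKM, and the fold threshold was 2. The genes described, the gene lists and the tests were chosen with earlier results of these data known. Named are the 8 genes, the 7 other family genes, for each pathway list the genes past 2-fold or, where these were 0 or more than 4, the 2 highest and 2 lowest differences whose interval excludes no change, genes of the chromosome 5 cluster and the nearest genes to Egfr. Adam17, Klf10, Dusp4, Ier3, Gm19619 and markers besides Pdgfra, Ly6a, Ptprc and Pecam1 were named in addition, after their values were seen. The marker genes Foxd3 and Myf5 were not analysed here. Alternatives were other pseudocounts, filters, fold thresholds and scalings. A planned search for a protein motif in the ligands was not run. Python 3.11.15, NumPy 2.4.6, pandas 2.3.3, SciPy 1.17.1 and matplotlib 3.10.9 were used, and the procedures were tested on simulated data.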

Additional observations from a re-analysis of the deposited data

How the results depend on the processing

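No paired analysis was possible because PRP and control had 1 library each. The number of genes at least 2-fold changed was 379 (70.7% higher with PRP). Pseudocounts of 0.1 and 5 gave 739 and 113, a filter at 5 FPKM gave 210, and it was 1436 at a 1.5-fold threshold (57.4% higher) and 26 at a 4-fold threshold (88.5% higher). With a pseudocount of 0.1 and no filter, chosen after seeing the data, it was 3807. Of the receptor and ligand genes, 1 (Hbegf) was called, against 0 with a pseudocount of 5, with a filter at 5 and at a 4-fold threshold, and 2 (Hbegf and Ereg) with a pseudocount of 0.1 and no filter. The interval excluded no change for 1 of the 3 filtered genes and for 3 of the 8 without a filter. The median of the shedding list was -0.15 with a filter at 5, which left 9 genes, and that of the induced list stayed between 0.29 and 0.55.

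The Hbegf difference lay between 0.51 and 1.84 and that of Ereg between 0.16 and 1.62. Egfr ranged from -0.01 to 0.02, so its sign depended on the scaling. Intervals on reads in place of fragments also put Erbb3 above no change. Areg, Btc and Erbb3 were limited by depth.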
